A study of Homo sapiens with 9 samples.

Results

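The first hour after heat was read in 4 of the 9 libraries of the series, all made from HEK293T, a line of human embryonic kidney origin with the SV40 large T antigen. They are the 2 libraries of cells held at 43 °C for 1 h in a water bath (H1) and the 2 libraries of cells given the same heat and then 1 h at 37 °C (H1R1), chosen by their labels and not by any measured value. Both groups had therefore been heated, and they differed in the hour of recovery. The 2 libraries of untreated wild-type cells (NC) served to place each change against the state before heat, and the 2 libraries after 6 h of recovery (H1R6) entered the fit only to estimate the spread. The single library after 18 h of recovery was left out. All cells grew in DMEM with fetal bovine serum at 37 °C outside the heat. The labels name neither separate cultures for the libraries of a condition nor the time at which the NC cells were taken, so p-values measure the spread between these libraries, which may be technical.

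Total counts ran from 3814195 to 6221613 over the NC, H1 and H1R1 libraries, and 18871 of 60664 genes had enough counts to be tested. Levels are given as CPM, the share of a gene in a library scaled by TMM (trimmed mean of M values). Such shares do not show a change in total RNA per cell, and less RNA per cell and fewer cells cannot be told apart in them. A gene that rose or fell did so relative to the other genes. The HEK293 lineage markers were all detected (8 of 8 tested, summed level 1687 to 2060 CPM over the libraries in the fit). Liver line markers summed to 0 to 1.41 CPM with 4 of 8 at 0 in every library, blood cell markers to 5.6 to 9.93 CPM, HeLa and squamous markers to 7.84 to 17.2 CPM and fibroblast markers to 56.4 to 78.7 CPM. None of these 4 lists had a member called between H1 and H1R1, but few members had enough counts to be tested. Of 8 each, these were 0 liver, 2 blood, 2 HeLa and squamous and 3 fibroblast markers. Of the 8 HEK293 lineage markers 2 were called, both higher at H1R1. A gene without a name, ENSG00000281181 on chromosome 21, took 0.4467% and 0.1541% of the H1 counts and 0.08372% and 0.02109% of the H1R1 counts. The first library lay above the second in NC, H1 and H1R1, and below it in H1R6 (0.07422% and 0.1222%).

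Heat shock factor 1 (HSF1) is held inactive by chaperones, and proteins that unfold in heat release it. It then forms trimers, enters the nucleus and binds heat shock elements, inverted repeats of the pentamer nGAAn, in the promoters of chaperone genes. When the temperature falls, the newly made chaperones clear unfolded protein and bind HSF1 again, while transcription, splicing and translation of other genes, which heat slows, resume. A comparison of H1R1 with H1 reads this turn: which transcripts start to change only after heat, which go on as they had begun and which reverse.

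The promoters of some chaperone genes that went on rising are printed first, because they hold 3 adjoining units of the heat shock element, GAA and TTC in turn with any 2 bases between them, starting with either and searched on both strands in RefSeq promoter windows (GRCh38.p14, 250 bases before to 50 after a start site). Capitals mark the match, with 5 bases on either side, 5′ to 3′ on the strand of the gene.
HSPA6, chr1:161524461-161524483, plus strand: aaaggTTCGCGAAAGTTCgcggc
HSPA8, chr11:123062174-123062196, minus strand: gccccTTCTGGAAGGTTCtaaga
HSPA8, chr11:123062349-123062371, minus strand: agcttGAAAGTTCCAGAAcgctg
HSP90AA1, chr14:102087115-102087137, minus strand: ggttcTTCCGGAAGGTTCgggag
HSP90AB1, chr6:44247773-44247795, plus strand: gcaggTTCTGGAAGATTCatggg
HSP90AB1, chr6:44247826-44247848, plus strand: gattgTTCTGGAAGCTTCtggat
The first base of the match lay 74 bases before the start site in HSPA6, 55 and 230 bases before it in HSPA8, 88 in HSP90AA1 and 165 and 112 in HSP90AB1. Of the 139 genes that rose in heat and again in the first hour and that have a promoter window, 8 held such a match (5.76%), the others being DNAJA1, PGAM5, RBM23 and LINC00862. The share was 0.496% of all tested genes with a window (58 of 11683). It was 0 of 682 genes that rose in the first hour, to above NC, without a call in heat. Among genes that rose in heat and were not called afterwards, a group added after the values were seen, it was 1.83% (6 of 328). A match describes the letters of this window and is not a measured binding site.

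In the first hour of recovery 1339 genes rose and 1092 fell (H1R1 against H1, edgeR's quasi-likelihood test, Benjamini-Hochberg adjusted p under 0.05). These are 7.1% and 5.79% of the genes tested, 12.9% in all, against 6.09% called in H1 against NC (4.02% higher, 2.08% lower) and 22.8% in H1R1 against NC. The shares of 7.1% and 5.79% stand beside every list count below. Of tested protein-coding genes alone, 9.08% rose and 6.87% fell. Most changes were small. The median log2 fold change was 0.49 among genes that rose and -0.69 among genes that fell, with 167 genes at 1 or more and 316 at -1 or less, and -0.02 over all genes tested. The H1 and H1R1 libraries did not overlap for 2422 of the called genes and for 10476 of all genes tested. Scaling moved the balance: with upper-quartile factors 1151 genes rose and 1282 fell, and with library size alone 1049 rose and 1345 fell, so that the share of called genes that were higher went from 55.1% to 47.3% and 43.8%. Counts also rested on single libraries, with 623 higher and 480 lower when H1 replicate 1 was left out, 612 and 462 when H1 replicate 2 was, and 542 and 378 when H1R1 replicate 1 was. DESeq2 called 996 higher and 622 lower, and a test against a log2 fold change of 1 left 3 higher and 2 lower.

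Each called gene was placed by its calls in H1 against NC and in H1R1 against NC. A gene started when heat brought no call and the first hour and H1R1 against NC were called the same way. It went on when both hours were called the same way, and reversed when they were called in opposite directions. A gene without a call in heat may still have begun to change in it. The median log2 fold change in heat was 0.06 for genes that started to rise and -0.09 for those that started to fall. Among genes that rose, 826 started (61.7%), 167 went on and 82 reversed, and 264 could not be placed because they were called against NC neither at H1 nor at H1R1. Among genes that fell, 732 started (67%), 64 went on, 81 reversed and 215 could not be placed. Of the reversing genes, 73 that rose and 59 that fell were not called against NC at H1R1, 5 and 19 were part of the way back, and 4 and 3 were past NC. All 3 contrasts share libraries, so an error in an H1 library adds to the genes that reverse and takes from those that go on, and the classes are a description with no test of their own. Seen from heat, 167 of the 758 genes that were higher at H1 rose further, 81 fell and 510 were not called, and 588 still stood above NC at H1R1. Of the 392 genes that were lower at H1, 82 rose, 64 fell further and 246 were not called, and 242 still stood below NC. With H1 replicate 1, H1 replicate 2 or H1R1 replicate 1 left out, the genes that started to rise numbered 427, 416 and 306, those that started to fall 358, 338 and 235, those that reversed upwards 41, 34 and 44 and those that reversed downwards 30, 33 and 37. The genes that went on rising numbered 65, 62 and 104, and those that went on falling were 29 and 34 without H1 replicate 1 and H1 replicate 2.

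**Figure D1:**
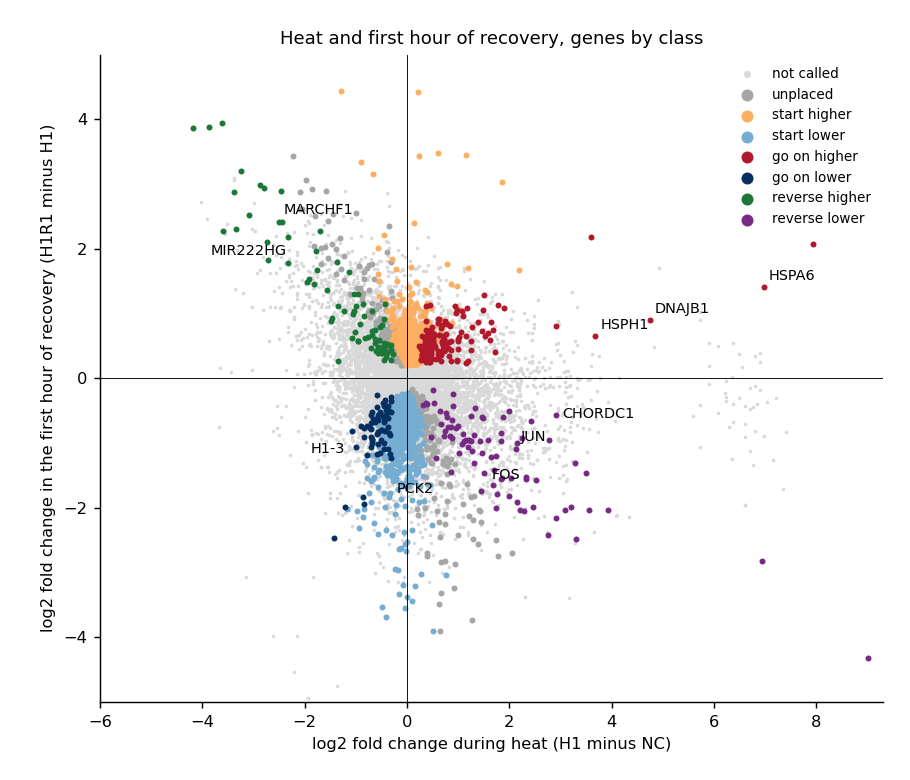
Each point is a tested gene, placed by its log2 fold change during heat (H1 minus NC, horizontal) and in the first hour of recovery (H1R1 minus H1, vertical), and coloured by class; grey points were not called or not placed, and 22 genes lie outside the axes. HSPA6, DNAJB1 and HSPH1 lie at the upper right (log2 fold changes of 6.97 and 1.42, 4.74 and 0.90, 3.68 and 0.66), MARCHF1 and MIR222HG at the upper left, and FOS and JUN at the lower right; the H1 libraries enter both axes with opposite sign.

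Several cytosolic chaperones kept rising after the heat had ended. The shares that rose were 45.5% of the tested HSP70 and HSP110 list, 38.9% of HSP40, 41.2% of HSP90 and 33.3% of small heat shock and BAG genes. The shares that fell were 0%, 5.56%, 11.8% and 0%. Of all genes tested 7.1% rose and 5.79% fell. HSPA6, a strictly inducible HSP70 that unheated cells hardly express, stood at 0.814 and 3.14 CPM in NC, 205 and 262 CPM in H1 and 563 and 687 CPM in H1R1. Both H1R1 libraries lay above both H1 libraries, with a log2 fold change of 1.42 ± 0.16 (SE, n = 2 libraries a condition, as throughout; edgeR adjusted p = 8.3e-07). DESeq2 gave it the same size of change with an adjusted p of 0.10, above the threshold. HSPA7, a neighbour on chromosome 1 that is close to HSPA6 in sequence so that reads may be split between them, went from 5.18 and 6.52 to 24 and 25.7 CPM and was at 0 in both NC libraries.

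HSPA8, the constitutive HSP70 that folds new chains and uncoats clathrin, went from 432 and 510 CPM in NC to 946 and 916 in H1 and 2185 and 1687 in H1R1. The H1R1 libraries lay apart from each other but well above H1 (1.06 ± 0.11, adjusted p = 1.8e-07), so that the gene rose about as much in the hour after heat as in heat itself, where the log2 fold change was 0.98. HSPH1, the HSP110 that exchanges nucleotide on HSP70, went from 1639 and 1801 CPM in H1 to 2712 and 2707 in H1R1 (0.66 ± 0.06, adjusted p = 3.5e-08). Its relatives HSPA4 and HSPA4L rose by log2 fold changes of 0.66 and 0.74. Of 11 tested members of the HSP70 and HSP110 list, 5 rose and none fell (median log2 fold change 0.41), and the count stayed at 5 without any of the H1 or H1R1 libraries. HSPA1A and HSPA1B, which share nearly all their sequence, had at most 3 counts in any library and were not tested.

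Among the HSP40 co-chaperones, which hand clients to HSP70, 7 of 18 rose and 1 fell. DNAJB1, the main heat-inducible HSP40, went from 69.4 and 80.5 CPM in NC to 1913 and 2091 in H1 and 3671 and 3809 in H1R1 (0.90 ± 0.10, adjusted p = 9.8e-07). DNAJA1 went from 358 and 385 to 663 and 570 CPM and DNAJB4 from 70.5 and 70.8 to 117 and 105 CPM, both with H1R1 libraries above H1 (log2 fold changes of 0.73 and 0.65). The number that rose was 3 without H1 replicate 2 and 4 without H1R1 replicate 1.

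The HSP90 machine, which matures kinases and steroid receptors and holds HSF1 inactive, gave 7 of 17 members higher and 2 lower. HSP90AA1, the inducible isoform, went from 2181 and 2242 CPM in H1 to 3426 and 3529 in H1R1 (0.65 ± 0.05, adjusted p = 1.1e-09), against 983 and 1000 CPM in NC. HSP90AB1, the constitutive isoform, went from 1660 and 1660 to 2353 and 2355 CPM (0.50 ± 0.06, adjusted p = 4.3e-07). STIP1, which links HSP70 to HSP90, rose by 0.43 ± 0.07. The immunophilin FKBP4 and the HSP90 activator AHSA1 rose by 0.24 and 0.26, and both lost the call when H1 replicate 1, H1 replicate 2 or H1R1 replicate 1 was left out (FKBP4 also without H1R1 replicate 2) and when the counts were scaled by library size alone. The number of members that rose was 4, 3 and 4 without H1 replicate 1, H1 replicate 2 and H1R1 replicate 1.

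BAG3, which couples HSP70 to small heat shock proteins and autophagy, went from 32.1 and 30.6 CPM in NC to 226 and 250 in H1 and 404 and 426 in H1R1 (0.80 ± 0.11, adjusted p = 1.3e-05). BAG2, an inhibitor of client ubiquitylation, was not called in heat and went from 21.1 and 19.2 to 35 and 31.7 CPM (0.73 ± 0.17, adjusted p = 0.0053). HSPB8, a small heat shock protein that partners BAG3, went from 6.07 and 8.1 to 16.3 and 12.6 CPM (1.04 ± 0.28, adjusted p = 0.014). BAG2 lost its call without H1 replicate 2 (adjusted p = 0.083) or H1R1 replicate 1 (0.087), and HSPB8 without H1 replicate 1 (0.15) or H1R1 replicate 1 (0.20). In the small heat shock and BAG list 3 of 9 tested members rose and none fell, with 1 left without H1R1 replicate 1 and 2 without either H1 library.

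Not every heat-induced chaperone went on. HSPD1, the mitochondrial chaperonin HSP60, stood at 1723 and 1833 CPM in H1 and 2004 and 1952 in H1R1, after 669 and 735 in NC (0.15 ± 0.06, adjusted p = 0.086), a difference that was called when only protein-coding genes were tested (0.027), when only the 4 libraries of H1 and H1R1 were fitted (0.043) or without either NC library. DNAJB6, an HSP40 that suppresses aggregation, stood at 255 and 265 CPM in H1 and 233 and 269 in H1R1 (-0.05 ± 0.08, adjusted p = 0.75). HSPB1, the small heat shock protein HSP27, stood at 112 and 113 CPM in H1 and 81.2 and 123 in H1R1 (-0.15 ± 0.13, adjusted p = 0.49). Its difference was 0.13 without H1R1 replicate 1 and -0.46 without H1R1 replicate 2, the latter called (adjusted p = 0.019), and that of DNAJB6 was 0.05 without H1R1 replicate 1. For all 3 genes the H1R1 libraries stood well above NC. CHORDC1, a zinc-binding HSP90 co-chaperone, had already turned: it went from 84.6 and 106 CPM in NC to 693 and 727 in H1 and fell to 463 and 496 in H1R1 (-0.57 ± 0.09, adjusted p = 0.00013), still above NC. AHSA2P, a pseudogene of the HSP90 activator family, fell from 58.9 and 61.7 to 33.6 and 41.1 CPM, a level that overlaps NC (36.2 and 40.5), and lost its call without H1R1 replicate 1 (adjusted p = 0.062).

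**Figure D2:**
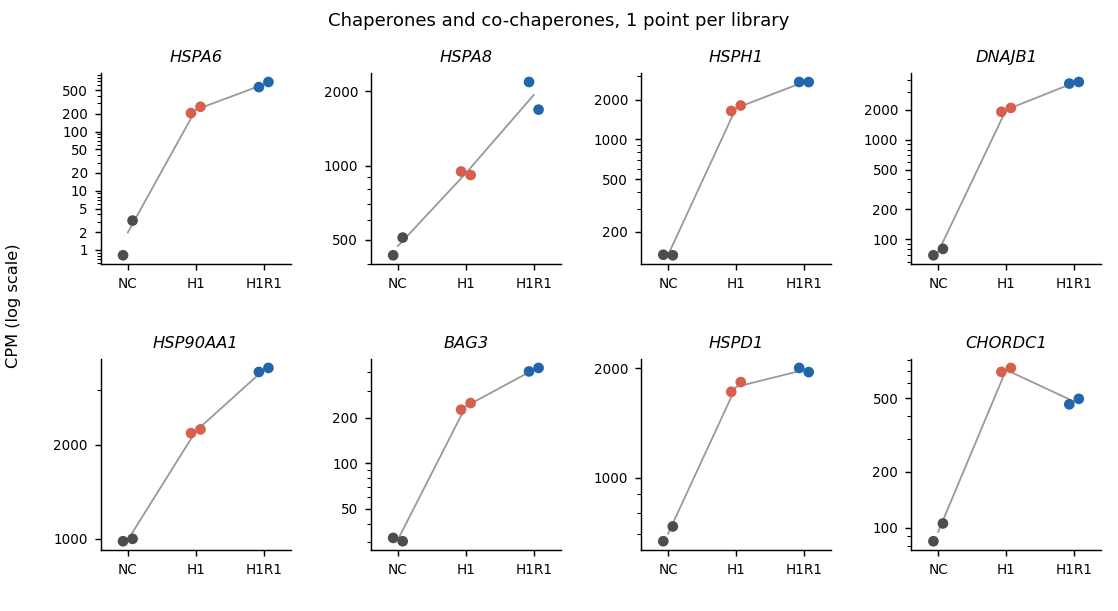
CPM on a log axis for 8 chaperone genes in the 2 NC, 2 H1 and 2 H1R1 libraries, 1 point per library, with a line through the means. HSPA6, HSPA8, HSPH1, DNAJB1, HSP90AA1 and BAG3 are higher in both H1R1 libraries than in both H1 libraries, HSPD1 differs by 0.15 on the log2 scale, and CHORDC1 is lower at H1R1.

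Several regulators of signalling and transcription also went on rising. SMAD7, the inhibitory SMAD that blocks TGF-β receptors, went from 60.2 and 38.7 CPM in NC to 132 and 148 in H1 and 305 and 276 in H1R1 (1.05 ± 0.11, adjusted p = 1.3e-07). BAMBI, a decoy receptor of the same pathway, went from 39.6 and 35.8 to 84.1 and 67.5 CPM (1.01 ± 0.15), and SMAD6, SKI, ID2 and HEY1 rose by 0.55, 0.63, 0.61 and 0.46. These belong to a list of ID and HES repressors and inhibitory SMADs of which 8 of 15 tested members rose and none fell (median 0.46). The share that rose was 53.3%, against 7.1% of all genes tested. The count was 7 or 8 without each of the H1 and H1R1 libraries.

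The forkhead and homeobox genes that went on rising included FOXC1, FOXF1 and EN2. FOXC1 went from 198 and 183 CPM in NC to 264 and 260 in H1 and 588 and 557 in H1R1 (1.13 ± 0.07, adjusted p = 7.1e-11). FOXF1 went from 85 and 91.4 to 194 and 189 CPM (1.12 ± 0.10, adjusted p = 1.1e-08). The homeobox gene EN2 went from 115 and 119 to 251 and 246 (1.09 ± 0.10, adjusted p = 1.3e-08). For all 3 the lowest H1R1 library lay above the highest H1 library. Of 33 tested forkhead genes, a group looked at after values were seen, 7 rose and none fell, 2 of them genes that went on rising. The share is 21.2%, against 7.1% of all genes tested and 9.08% of protein-coding genes, as all 33 are. RNF217, an E3 ubiquitin ligase, went from 98.6 and 97.4 to 222 and 204 CPM (1.12 ± 0.09). USPL1, a SUMO isopeptidase, went from 134 and 137 to 259 and 232 CPM after 43.5 and 43.6 in NC (0.86 ± 0.09). GADD45B, a stress-induced activator of the p38 pathway, went from 40.2 and 36.6 to 74.8 and 65.8 CPM (0.88 ± 0.16). ANKRD1, a target of YAP in muscle and other cells, went from 2.5 and 3.52 to 15.2 and 12.4 CPM (2.19 ± 0.42, adjusted p = 0.00082) and was at 0.407 and 0 CPM in NC.

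The AP-1 family, dimers of FOS, JUN and MAF proteins that carry early responses to growth factors and stress, split within the hour: 3 of 12 tested members rose and 3 fell. Each share is 25%, against 7.1% higher and 5.79% lower of all genes tested. FOSL2 rose from 47.9 and 34.2 CPM in H1 to 86.2 and 94.5 in H1R1 (1.14 ± 0.18, adjusted p = 6.4e-05), and the small MAF gene MAFG from 53.2 and 66.1 to 107 and 99.9 (0.80 ± 0.12, adjusted p = 4.9e-05). FOS did the opposite. It stood at 20.1 and 27.7 CPM in NC and 77 and 57.3 in H1, and fell to 24.8 and 23.8 in H1R1 (-1.46 ± 0.19, adjusted p = 6e-06), within the range of NC. FOSB, which was not called in heat (50.9 and 34.7 CPM in H1), fell to 17.6 and 12.4 CPM, below both NC libraries (-1.49 ± 0.23, adjusted p = 6.9e-05). JUN fell from 1554 and 1512 to 956 and 976 CPM (-0.67 ± 0.07, adjusted p = 2.7e-07) and remained above its 278 and 292 CPM in NC. ATF3, a stress-induced repressor, stood at 112 and 113 CPM in H1 and 83.2 and 113 in H1R1 and was not called, though without H1R1 replicate 2 it was (-0.43, adjusted p = 0.034). The number of members that rose was 2 without any one of the H1 or H1R1 libraries.

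Among 34 other immediate early genes tested, 5 rose and 4 fell (14.7% and 11.8%, against 7.1% and 5.79% of all genes tested). EGR1, the zinc finger factor that serum and stress induce, fell from 48.6 and 48.4 CPM to 24 and 19.1 (-1.16 ± 0.19, adjusted p = 0.00014), a range that overlaps NC (18.7 and 29.8). KLF10 fell from 72.5 and 78.6 to 43.1 and 39.2 CPM (-0.87 ± 0.13) and KLF6 from 120 and 125 to 77.9 and 86.4 CPM (-0.58 ± 0.10), and both still stood above NC. IER5, a feedback regulator of HSF1, and MCL1, a short-lived survival factor, went on rising by 0.44 and 0.34, calls lost without H1R1 replicate 2 (IER5, adjusted p = 0.083) and H1 replicate 1 (MCL1, 0.069). The number of these genes that rose was 3 without H1 replicate 1, H1R1 replicate 1 or H1R1 replicate 2. The MAP kinase phosphatases, which switch off stress kinases, had 3 of 8 tested members higher (37.5%) and none lower. DUSP16 went from 85.5 and 90.2 to 158 and 169 CPM (0.89 ± 0.09, adjusted p = 1.6e-07), whereas DUSP1, induced in heat from 57.8 and 54.9 to 364 and 370 CPM, stood at 374 and 426 CPM and was not called (0.12 ± 0.08, adjusted p = 0.34). Without H1 replicate 1, H1 replicate 2 or H1R1 replicate 1 1 phosphatase gene was called.

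Genes that reversed upwards had been pushed down by heat and came back within the hour. MARCHF1, a ubiquitin ligase of the endosome (chromosome 4, 163524298 to 164384050, minus strand, GRCh38), stood at 20.8 and 21.9 CPM in NC, 3.21 and 4.23 in H1 and 19.1 and 21 in H1R1 (2.42 ± 0.26, adjusted p = 3.1e-07). MIR222HG, the noncoding host of miR-221 and miR-222 (chromosome X, 45745211 to 45770274, minus strand), stood at 58.4 and 67.4 CPM in NC, 12.1 and 12.7 in H1 and 39.6 and 46.7 in H1R1 (1.79 ± 0.16, adjusted p = 1.7e-08), and was still called below NC. MIR29B2CHG, the host of miR-29b-2 and miR-29c on chromosome 1, went from 6.78 and 10.9 to 23.3 and 26.6 CPM, after 35.2 and 33.4 in NC (1.48 ± 0.22). In all 3 the lowest H1R1 library was over 2 times the highest H1 library. The spliceosomal RNA gene RNVU1-34, a variant of U1, rose from 0 and 1.06 to 9.99 and 5.84 CPM, and its counts share sequence with other copies. Of 120 tested genes of the snRNA type, a group looked at after values were seen, 8 rose and 4 fell (6.67% and 3.33%, not above the 7.1% and 5.79% of all genes tested), and snRNA genes are multicopy, so their counts are uncertain.

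HOX genes, which set position along the body axis, were higher after the hour of recovery in many cases. Of 34 tested protein-coding genes of the 4 clusters, 19 rose and none fell (55.9%, median log2 fold change 0.63). Of all genes tested 7.1% rose, and of protein-coding genes 9.08%. By cluster 9 of 11 rose in HOXA on chromosome 7, 5 of 9 in HOXB on chromosome 17, 2 of 7 in HOXC on chromosome 12 and 3 of 7 in HOXD on chromosome 2. The group was noticed in these values and is not a list chosen beforehand. Without one of the 4 libraries the count was 11 to 14, the lowest being 11 without H1 replicate 1 and without H1R1 replicate 1, and it was 18 with library size alone. HOXD9 stood at 27.3 and 25.1 CPM in NC, 7.86 and 12.3 in H1 and 34 and 36.6 in H1R1 (1.80 ± 0.21, adjusted p = 8.8e-07). HOXB2 was 6.96 and 8.81 CPM in H1 and 26 and 21.9 in H1R1, above its 12.2 and 11 in NC (1.61 ± 0.24, adjusted p = 4.2e-05). HOXA-AS2, an antisense transcript of the HOXA cluster, went from 11.6 and 8.46 to 30.6 and 32 CPM after 25 and 18.8 in NC (1.64 ± 0.21). Reads were counted without regard to strand, so an antisense transcript and the gene it overlaps cannot be told apart. In heat 5 of the 34 genes had fallen and 2 had risen, with a median log2 fold change of -0.26. Most of the 19 genes that rose were therefore not called in heat, HOXB2 among them, and did not reverse. HOXB6 and HOXD13 had risen in heat and went on rising, by 0.66 ± 0.12 and 0.60 ± 0.10.

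Smaller reversals came from RNA processing and regulation. SRSF11, an SR-like splicing factor, stood at 379 and 446 CPM in NC, 323 and 307 in H1 and 465 and 441 in H1R1 (0.53 ± 0.08, adjusted p = 3.2e-05). SNHG3, a small nucleolar RNA host transcript, went from 84.3 and 79.6 to 129 and 117 CPM, its NC level being 128 and 111 (0.59 ± 0.10). XBP1, the factor spliced by IRE1 in the unfolded protein response, went from 137 and 140 to 177 and 197 CPM after 164 and 180 in NC (0.43 ± 0.09, adjusted p = 0.0018). MYC, cut by heat from 295 and 291 to 111 and 118 CPM, stood at 127 and 150 CPM (0.27 ± 0.09, adjusted p = 0.048), far below NC. Its call was lost in 11 alternatives besides the fold threshold, among them DESeq2 (adjusted p = 0.061), scaling by library size (0.10) and leaving out H1 replicate 1, H1 replicate 2 or H1R1 replicate 2 (0.29, 0.13 and 0.39). Downward reversals among noncoding RNAs included TUG1, which went from 201 and 205 to 156 and 149 CPM, and THUMPD3-AS1, which went from 145 and 147 to 59.9 and 72.1 CPM after 50.1 and 55.9 in NC (-1.15 ± 0.11, adjusted p = 1.9e-08). VEGFA, an angiogenic factor, fell from 150 and 155 to 108 and 123 CPM (-0.40 ± 0.10, adjusted p = 0.0061) and lost its call without H1 replicate 2 (0.076) or H1R1 replicate 1 (0.15).

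**Figure D3:**
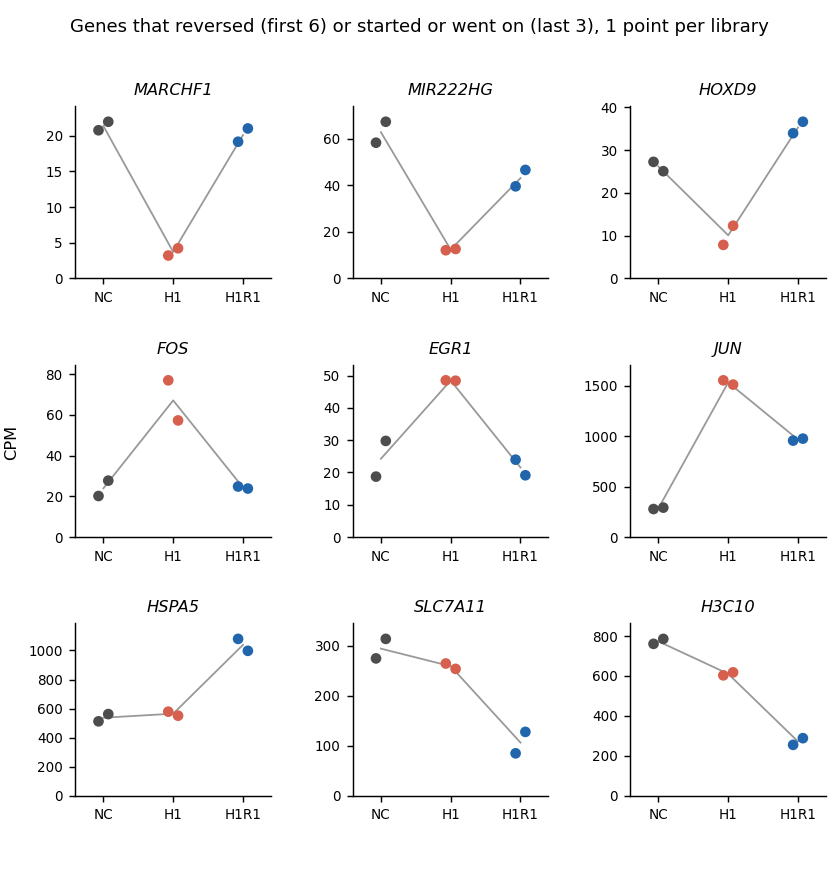
CPM on linear axes from 0 for 9 genes in the 2 NC, 2 H1 and 2 H1R1 libraries, 1 point per library, with a line through the means. MARCHF1, MIR222HG and HOXD9 dip at H1 and return, FOS, EGR1 and JUN peak at H1, HSPA5 and SLC7A11 were called after heat and not in it, and H3C10 falls in both hours.

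The largest class was made of genes that started to rise, called after heat and not in it. Several protein folding and production lists had members in it. The counts given for these lists cover every member that rose in the first hour, including any already called higher in heat. The TRiC chaperonin, which folds actin and tubulin, and its partner prefoldin had 9 of 13 tested subunits higher and none lower (median 0.25). The share higher was 69.2%, against 7.1% of all genes tested. In heat 2 of the 13 had risen and none had fallen. CCT2 went from 248 and 239 CPM in H1 to 367 and 333 in H1R1, after 231 and 233 in NC (0.52 ± 0.08, adjusted p = 2.8e-05). CCT6A went from 342 and 367 to 508 and 470 (0.47 ± 0.07) and PFDN2 from 45 and 42.3 to 72.6 and 65.4 (0.66 ± 0.12). TCP1 was an exception in timing, already at 637 and 680 CPM in H1 against 337 and 330 in NC, and went on to 836 and 773 CPM (0.29 ± 0.07, adjusted p = 0.005), a call lost without H1 replicate 1 (0.11) or H1R1 replicate 1 (0.0996). The subunits called higher numbered 4, 4 and 3 without H1 replicate 1, H1 replicate 2 and H1R1 replicate 1, and 6 with library size alone.

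Part of the list for the unfolded protein response of the endoplasmic reticulum (ER) rose in the same hour. HSPA5, the ER HSP70 known as BiP, stood at 512 and 562 CPM in NC, 578 and 551 in H1 and 1080 and 998 in H1R1 (0.88 ± 0.07, adjusted p = 1.6e-09). HERPUD1, which recruits ubiquitin ligases to the ER membrane, went from 106 and 107 to 198 and 215 CPM (0.95 ± 0.09, adjusted p = 1.7e-08), and the ER co-chaperone SDF2L1 from 33.9 and 38.4 to 71.9 and 64 CPM (0.91 ± 0.15, adjusted p = 0.00015). In each of these genes both H1R1 libraries lay above all NC and H1 libraries. Of 21 tested members of the list 10 rose and 1 fell, while in heat none had risen and 1 had fallen. After heat these are 47.6% and 4.76%, against 7.1% and 5.79% of all genes tested. Against NC, 7 of the 21 were higher at H1R1 and 1 was lower, with a median log2 fold change of 0.15. Over all genes tested 11.9% were higher and 10.9% lower in that comparison. The member that fell was EDEM1, which targets misfolded glycoproteins for degradation, from 132 and 140 to 84.7 and 106 CPM (-0.52 ± 0.10, adjusted p = 0.00068, and 0.064 without H1R1 replicate 1). The number that rose was 3 without H1 replicate 2 and 5 without H1R1 replicate 1, and the number that fell was 0 without H1R1 replicate 1 and 3 without H1R1 replicate 2.

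Ribosome biogenesis, the making of ribosomes in the nucleolus, had 22 of 41 tested factors higher and none lower (median 0.36), against 4 higher in heat. The share higher was 53.7%, against 7.1% of all genes tested. DDX21, an RNA helicase of rRNA processing, went from 445 and 432 to 638 and 606 CPM (0.50 ± 0.07, adjusted p = 8.3e-06). PES1, of the large subunit pathway, went from 126 and 123 to 190 and 188 CPM (0.60 ± 0.09, adjusted p = 3.8e-05) and RRP12 from 95.5 and 103 to 152 and 133 (0.53 ± 0.10). The abundant nucleolar protein NCL went from 1174 and 1163 to 1475 and 1369 CPM (0.28 ± 0.06, adjusted p = 0.0015). The count was 14, 12 and 8 without H1 replicate 1, H1 replicate 2 and H1R1 replicate 1. Of the 73 tested cytosolic ribosomal protein genes none rose and 1 fell, with a median of -0.01.

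Of 32 tested proteasome subunits 11 rose and none fell (34.4% higher, against 7.1% of all genes tested, median 0.24). PSMD1, of the regulatory particle, went from 151 and 150 to 213 and 212 CPM (0.50 ± 0.08, adjusted p = 0.00012) and PSMD11 from 132 and 140 to 198 and 172 CPM (0.45 ± 0.09, adjusted p = 0.00082, and 0.057 without H1R1 replicate 1). Of 24 ubiquitin genes, p97 adaptors and AN1 zinc finger genes 8 rose and none fell, with UBB, which encodes a chain of ubiquitin units, from 257 and 242 to 315 and 326 CPM (0.36 ± 0.08, not called without H1 replicate 2, adjusted p = 0.074). The proteasome count was 5, 5 and 4 without H1 replicate 1, H1 replicate 2 and H1R1 replicate 1 and 6 by DESeq2, with 7 without H1R1 replicate 2, and the ubiquitin count 4 without each of the first 3 libraries and 5 without H1R1 replicate 2. Of 23 tested lipid synthesis genes 6 rose (26.1%) and none fell, with a list median of 0.08. FASN, which makes palmitate, went from 1291 and 1368 to 1940 and 1765 CPM (0.48 ± 0.06, adjusted p = 7e-06), and HMGCS1, of sterol synthesis, from 57.5 and 57.8 to 81.2 and 80.3 CPM (0.49 ± 0.11). The lipid count was 3, 4 and 3 without H1 replicate 1, H1 replicate 2 and H1R1 replicate 1. Already higher in heat were 3 of the 32 proteasome, 5 of the 24 ubiquitin and 2 of the 23 lipid genes, and none was lower.

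Some RNA-binding proteins and elongation factors also rose. Among heterogeneous nuclear ribonucleoproteins 9 of 28 rose and none fell, among SR splicing factors 5 of 14 rose and 1 fell, and among stress granule proteins 9 of 19 rose and none fell. The shares that rose were 32.1%, 35.7% and 47.4%, and 21.7% for the elongation list below, against 7.1% of all genes tested. Already higher in heat were 2 ribonucleoprotein, 2 SR and 2 stress granule genes and 1 elongation gene, while 1 SR and 1 elongation gene were lower. TARDBP, the TDP-43 protein, went from 167 and 173 to 251 and 247 CPM (0.56 ± 0.08, adjusted p = 2.1e-05). SRSF1 went from 200 and 209 to 305 and 269 (0.49 ± 0.08) and DDX6, a helicase of P-bodies, from 321 and 310 to 421 and 422 (0.42 ± 0.08). NUFIP2, an RNA-binding stress granule protein, had risen in heat and rose again from 439 and 457 to 690 and 661 CPM (0.59 ± 0.07, adjusted p = 1.5e-06). CCNT1, the cyclin subunit of the elongation factor P-TEFb, went from 152 and 164 to 242 and 234 CPM (0.59 ± 0.08, adjusted p = 1.5e-05) in a list where 5 of 23 rose and none fell. Without H1R1 replicate 1 the ribonucleoprotein, SR and elongation counts were 2 each and the stress granule count was 3; without H1 replicate 1 or H1 replicate 2 they were 5, 3, 2 and 3.

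Among the genes of this class with the greatest change, SHB, an adaptor of tyrosine kinase signalling, stood at 46.4 and 55.5 CPM in H1 and 145 and 116 in H1R1 (1.36 ± 0.14, adjusted p = 9.3e-08). NEB, which encodes the muscle protein nebulin, stood at 15 and 13.7 and then 47 and 32.7 CPM (1.48 ± 0.20). CLP1, an RNA kinase of transcript 3′ end formation, stood at 11.4 and 15.1 and then 37.6 and 33.1 CPM (1.42 ± 0.21). SPSB1, an adaptor of ubiquitin ligases, stood at 9.28 and 8.46 and then 26 and 24.3 CPM (adjusted p = 7.7e-05). For each of these 4 genes both H1R1 libraries lay above all NC and H1 libraries. Mitotic genes showed smaller changes, with 6 of 25 tested higher and 1 lower (24% and 4%, against 7.1% and 5.79% of all genes tested). CDC20, the activator of the anaphase-promoting complex, went from 85.3 and 95.5 to 155 and 138 CPM (0.70 ± 0.09, adjusted p = 8.9e-06). BUB1, a checkpoint kinase, went from 129 and 137 to 175 and 179 (0.41 ± 0.09). The number of mitotic genes that rose was 2 without H1 replicate 1, H1 replicate 2 or H1R1 replicate 1, and the gene that fell was not called without any one of the 4 libraries.

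**Figure D4:**
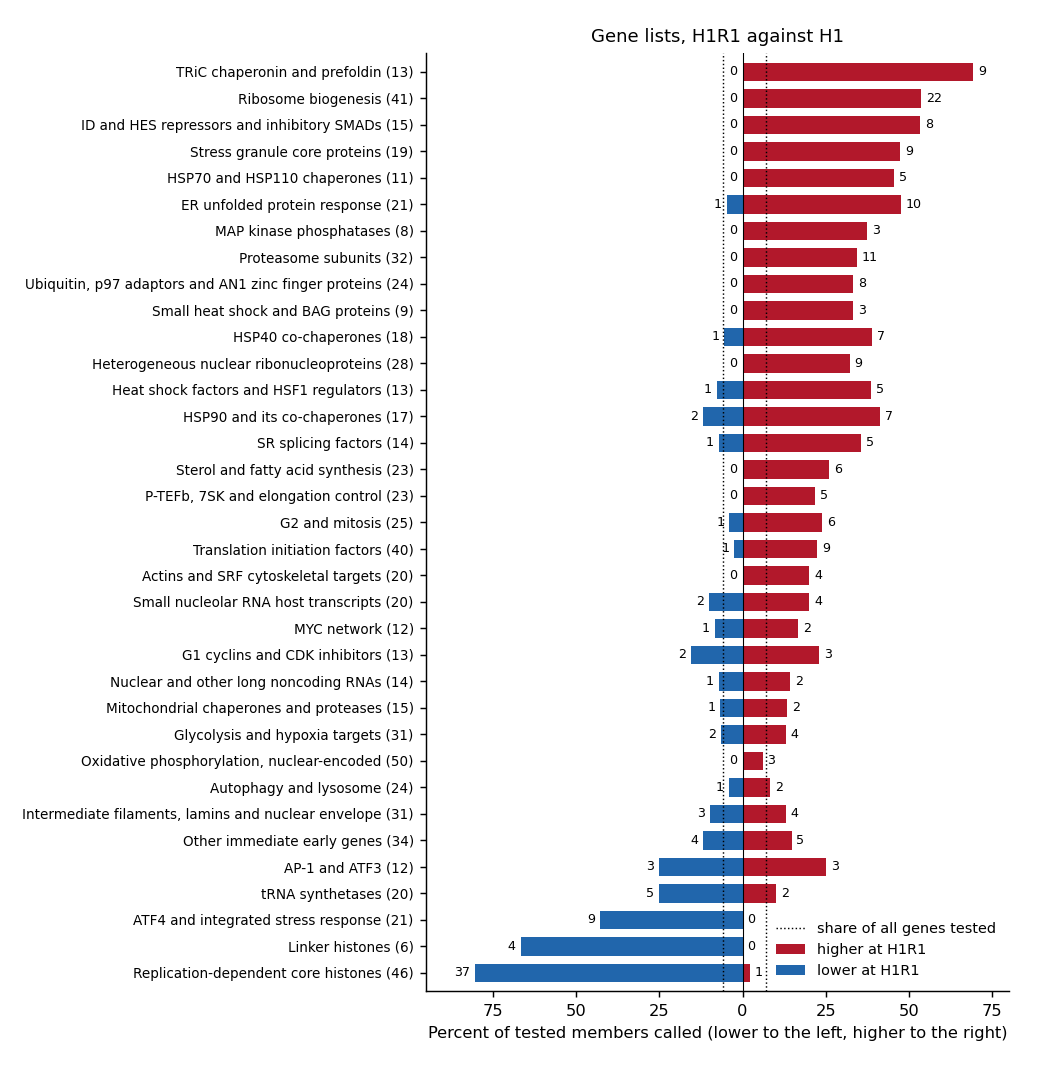
Percent of tested members called higher (red, to the right) and lower (blue, to the left) at H1R1 than at H1, for gene lists with at least 3 called members; numbers at the bars are genes, the number tested is in brackets, and dotted lines mark the shares over all genes tested (7.1% and 5.79%). TRiC and ribosome biogenesis lead on the right with 9 of 13 and 22 of 41, and core histones, linker histones and the ATF4 list on the left with 37 of 46, 4 of 6 and 9 of 21.

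The integrated stress response, which acts in part through the factor ATF4, supplies amino acids and antioxidants. Of 21 tested genes of its list 9 fell in the first hour while none rose (42.9%, against 5.79% of all genes, median -0.35). In heat 3 of the 21 had fallen and none had risen (median -0.18), and the 9 that fell after heat were not among those 3. PCK2, the mitochondrial PEP carboxykinase, stood at 143 and 161 CPM in NC, 118 and 129 in H1 and 33.5 and 54.2 in H1R1 (-1.53 ± 0.14, adjusted p = 1.5e-08). SLC7A11, the cystine transporter, went from 264 and 253 to 84.6 and 127 CPM (-1.30 ± 0.13, adjusted p = 7.3e-08). PSAT1 and PHGDH, of serine synthesis, went from 390 and 387 to 179 and 271 CPM (-0.80 ± 0.12) and from 689 and 696 to 419 and 546 CPM (-0.53 ± 0.09). ATF4 itself went from 585 and 561 to 398 and 479 CPM (-0.39 ± 0.08, adjusted p = 0.0028, and 0.11 without H1R1 replicate 1). In all 5 genes both H1R1 libraries lay below both H1 libraries, and H1R1 replicate 1 lay below H1R1 replicate 2. That gap ran through the list: 19 of its 21 tested members, and all 9 that fell, were lower in H1R1 replicate 1, by a median of -0.36 on the log2 scale, whereas the 2 H1 libraries differed by a median of -0.01. The count was 5 without H1R1 replicate 1, 7 without either H1 library and 10 without H1R1 replicate 2. The tRNA synthetases, of which 5 of 20 fell and 2 rose, were lower in H1R1 replicate 1 in 15 genes, by a median of -0.10. The part of this library in these results was not tested. SARS1 fell from 288 and 269 to 178 and 225 CPM (-0.47 ± 0.09, adjusted p = 0.00099) and RARS1 rose from 106 and 115 to 160 and 150 CPM (0.49 ± 0.09), and without H1R1 replicate 1 none of the synthetases was called lower, with SARS1 at an adjusted p of 0.073, while 2 were without H1 replicate 1 and 1 without H1 replicate 2. EIF4EBP1, an ATF4 target that binds the cap factor eIF4E, fell by 0.89 (SE 0.11, adjusted p = 6e-06) among initiation factors of which 9 of 40 rose and no other fell, the number that rose being 2, 3 and 1 without H1 replicate 1, H1 replicate 2 and H1R1 replicate 1 and 4 with library size alone.

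Histone genes had begun to fall in heat and fell further. Of 46 tested replication-dependent core histone genes, which are made in S phase and end in a stem loop in place of a poly(A) tail, 37 fell and 1 rose (80.4% lower, median -0.78), and 32 had fallen in heat. H3C10 stood at 761 and 786 CPM in NC, 603 and 618 in H1 and 254 and 288 in H1R1 (-1.17 ± 0.07, adjusted p = 1.8e-11). H2BC11 went from 449 and 502 to 198 and 208 CPM (-1.23 ± 0.08, adjusted p = 3e-11), H2AC6 from 246 and 269 to 109 and 124 (-1.15 ± 0.08) and H4C3 from 444 and 460 to 321 and 307 (-0.53 ± 0.07). In each of them the 3 conditions did not overlap, in the order NC, H1, H1R1. The linker histones, which close the nucleosome, fell in 4 of 6 tested genes: H1-4 went from 1463 and 1615 CPM in NC to 881 and 841 in H1 and 426 and 491 in H1R1 (-0.91 ± 0.07, adjusted p = 1e-09). H1-2 went from 939 and 935 to 429 and 551 CPM (-0.94 ± 0.08). H3C6 was the core histone gene that rose, from 2.14 and 1.06 to 5.99 and 8.87 CPM, and lost its call without H1 replicate 2 (adjusted p = 0.051). The core histone count was 34 to 37 without each of the 4 libraries, and of 27 DNA replication and S phase genes 1 rose and none fell. Histone genes resemble each other, and reads that matched several places were not counted. The CCAAT box, which factor NF-Y binds, was held on either strand by 38 of the 54 genes that went on falling and have a window (70.4%). Of all tested genes with a window 42.7% held it. Histone and other genes were not separated in this share.

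Outside the histones, the genes that went on falling included TRIM66, a chromatin reader, from 69.2 and 72.6 CPM in NC to 42.9 and 35.4 in H1 and 7.83 and 14.9 in H1R1 (-1.83 ± 0.20, adjusted p = 4.1e-07). ACCS fell from 9.64 and 17.3 to 3.66 and 3.27 CPM (-1.94 ± 0.32, adjusted p = 0.00013). The homeobox gene NKX2-3 fell from 8.21 and 7.05 to 2.66 and 0.934 CPM. CIRBP, the cold-inducible RNA-binding protein, stood at 253 and 277 CPM in NC, 165 and 187 in H1 and 149 and 144 in H1R1 (-0.26 ± 0.09, adjusted p = 0.044), a call lost without H1 replicate 2 (0.42) without either library of H1R1 (0.13 and 0.17), without either library of H1R6 (0.062 and 0.064), by DESeq2 (0.072) and with all 9 libraries (0.0501). Genes that started to fall included LRRN2, a neuronal leucine-rich repeat protein, from 22 and 19.7 to 4.66 and 9.8 CPM (-1.58 ± 0.28) and ZBTB20, a zinc finger repressor, from 12.5 and 15 to 3.66 and 5.14 CPM (-1.66 ± 0.31). ENSG00000281181 fell from 4500 and 1556 to 867 and 220 CPM (-2.47 ± 0.41, adjusted p = 0.00016, and 0.061 by DESeq2), with the first library above the second in both H1 and H1R1.

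Long genes fell more often than short ones. Among tested protein-coding genes that span 5 to 20 kb on the genome 10.8% rose and 4.52% fell (3518 genes), whereas among those of 200 to 500 kb 2.54% rose and 13% fell (906 genes), and over 500 kb 2.78% rose and 13.4% fell (216 genes). The median log2 fold change went from 0.04 at 5 to 20 kb to -0.07 at 100 to 200 kb and -0.24 over 500 kb, against a background of 9.08% higher and 6.87% lower for all 13339 tested protein-coding genes. The difference lay in the same direction without each library. Over 200 kb, 1.25% rose and 5.53% fell when H1 replicate 1 was left out, 0.981% and 5.44% when H1 replicate 2 was, and 1.07% and 4.55% when H1R1 replicate 1 was, while under 20 kb these shares were 4.92% and 2.23%, 4.98% and 2.23%, and 4.02% and 1.9%. With library size alone 1.87% rose and 16.7% fell over 200 kb, and 8.17% and 5.79% did under 20 kb. SYNE1, which encodes the giant nesprin-1 of the nuclear envelope over 516 kb of chromosome 6, fell from 42.9 and 31.7 to 16.6 and 20.1 CPM (-1.03 ± 0.19, adjusted p = 0.00048), and MARCHF1 is among the 29 of 1122 genes over 200 kb that rose. Genes that started to rise had a median span of 31 kb, those that started to fall 60.5 kb, those that went on falling 7.46 kb, with 27 of 60 made of a single exon, and all tested protein-coding genes 34.7 kb. Span and expression level were not separated here.

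**Figure D5:**
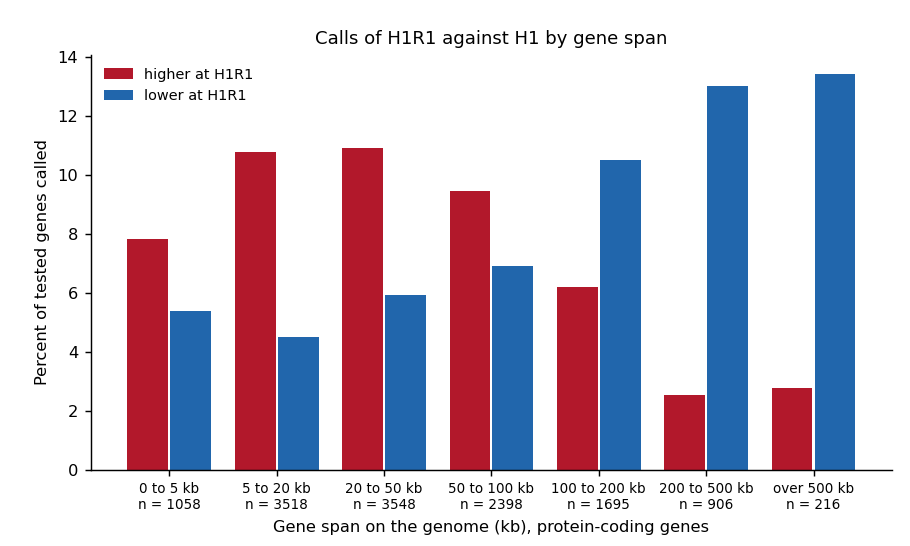
Percent of tested protein-coding genes called higher (red) and lower (blue) at H1R1 than at H1, in 7 bins of gene span on the genome, with the number of genes under each bin. The red bars fall from 10.9% at 20 to 50 kb to 2.54% at 200 to 500 kb, while the blue bars climb from 4.52% at 5 to 20 kb to 13.4% over 500 kb.

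Among 31 intermediate filament, lamin and nuclear envelope genes 4 rose and 3 fell (12.9% and 9.68%). Beside this and the lists below stand 7.1% higher and 5.79% lower of all genes tested. Of tested protein-coding genes 9.08% were higher and 6.87% lower. The lamins LMNA and LMNB1 stood at log2 fold changes of -0.02 ± 0.09 and 0.01 ± 0.08 and were not called. The nuclear pore genes NUP153 and RANBP2 rose by 0.33 ± 0.07 and 0.30 ± 0.08, with NUP153 not called without H1 replicate 2 (adjusted p = 0.066) and RANBP2 not called without either H1 library (0.086 and 0.082) or H1R1 replicate 1 (0.054). The number that rose was 1, 0 and 1 without H1 replicate 1, H1 replicate 2 and H1R1 replicate 1. Among 20 actins and SRF targets 4 rose and none fell, with ACTB from 1857 and 1881 to 2293 and 2211 CPM (0.27 ± 0.05, adjusted p = 0.0012); among 12 tubulins 2 rose, with 0 without H1 replicate 1 or H1R1 replicate 1. Glycolysis and hypoxia targets had 4 of 31 higher and 2 lower, LDHA and ENO1 rising by 0.37 and 0.36. The counts higher and lower were 3 and 0 of 50 for oxidative phosphorylation, 2 and 0 of 16 for NRF2 targets, 2 and 0 of 20 for p53 targets and 3 and 2 of 13 for G1 cyclins and CDK inhibitors. They were 1 and 0 of 13 for the BCL2 family, 2 and 1 of 24 for autophagy and lysosome, 2 and 0 of 17 for the Hippo pathway and 1 and 0 of 16 for clock genes. They were 2 and 1 of 15 for mitochondrial chaperones, 1 and 1 of 9 for splicing kinases, 2 and 1 of 12 for the MYC network, 0 and 1 of 2 for cold-inducible proteins, 4 and 2 of 20 for small nucleolar RNA hosts and 2 and 1 of 14 for other long noncoding RNAs. The share higher was near that of all genes for oxidative phosphorylation (6%), p53 targets (10%), the BCL2 family (7.69%), autophagy and lysosome (8.33%) and clock genes (6.25%). Among heat shock factors and HSF1 regulators 5 of 13 rose and 1 fell (38.5% higher), and the number that rose was 0, 1, 1 and 2 without H1 replicate 1, H1 replicate 2, H1R1 replicate 1 and H1R1 replicate 2. Without one of the 4 libraries the actin and glycolysis counts were 2 or 3 each, and the oxidative phosphorylation count was 0 without H1R1 replicate 1. Small nucleolar RNA hosts that rose numbered 1 without H1 replicate 1, H1 replicate 2 or H1R1 replicate 1, and G1 genes that rose numbered 1 without any one of the 4 libraries. The NRF2 targets that rose numbered 0 without H1 replicate 2. The BCL2, Hippo and clock genes that rose lost their calls without any one of the 4 libraries and with library size alone, and so did the autophagy genes without H1 replicate 1, H1 replicate 2 or H1R1 replicate 1.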

How the data were processed

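The authors deposited 1 table of raw counts per gene. Per the submitters' notes and the file header, reads were checked with FastQC 0.11.8, trimmed with cutadapt 4.1, aligned to GRCh38 with HISAT2 2.2.1 and counted over exons of the Ensembl 104 annotation with featureCounts 2.0.2, without strand. Each read of a pair was counted on its own, so that 81.8% to 87.5% of counts above 0 were even, and reads matching several places or genes were left out. DESeq2 1.38.3 is also listed by the submitters. All 37 mitochondrially encoded genes were at 0. No count column was left unused for want of a sample.

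Counts of the 8 libraries of NC, H1, H1R1 and H1R6 were fitted in R 4.3.3 with edgeR 4.0.16 (TMM, filterByExpr with a minimum count of 10 and total of 15, quasi-likelihood test, two-sided). H1R1 against H1 was the main comparison, and p-values were adjusted over all 18871 genes tested. SE is the log2 fold change divided by the root of F. The 4 conditions had 2 libraries each, which exceeded sampling noise (chi-square per degree of freedom 1.71 for H1 and 1.77 for H1R1) and were kept as replicates. The fit was tested on simulated data. Gene names came from a table that matched 99.7% of identifiers, and gene types from GENCODE 29.

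Genes named are those with the 15 largest changes each way, the 8 largest of each class, both at an average log2 CPM of at least 3, the leading members of 45 gene lists, whole chaperone, AP-1, phosphatase and splicing kinase lists, and genes the study names. HOX, forkhead and snRNA genes and those past NC were added after values were seen. The members and lists were chosen with earlier results of these data known. Genes read as sex-linked markers and some list members are not reported here, though list counts include them. Alternatives covered scaling, filter, test, libraries, replicate block, gene type and read pairs; DESeq2 was version 1.42.0. Matplotlib 3.10.9 drew the figures.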

Additional observations from a re-analysis of the deposited data

Results flagged for a closer look

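A set of 7 genes was called against NC in opposite directions at H1 and at H1R1, with the difference between H1R1 and H1 itself past the edgeR test. They were named after their values were seen. HOXB3, a gene of the HOXB cluster, stood at 47 and 54.1 CPM in NC, 37 and 38 in H1 and 82.9 and 83.6 in H1R1 (log2 fold change H1R1 minus H1 of 1.15 ± 0.12, adjusted p = 1.6e-07). RABGGTB, a subunit of the enzyme that attaches lipid to Rab proteins, stood at 152 and 142, 96.1 and 86.5, and 205 and 168 CPM (1.04 ± 0.10). DGCR8, the partner of DROSHA in microRNA processing, stood at 85.3 and 78.9, 64.1 and 55.8, and 103 and 124 CPM (0.92 ± 0.12). AHDC1, a DNA-binding protein, stood at 66.3 and 69.5, 53.2 and 43, and 84.2 and 86.4 CPM (0.83 ± 0.12).

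TXNIP, the thioredoxin inhibitor that also limits glucose uptake, moved the other way, from 70 and 77.3 CPM in NC to 94.3 and 108 in H1 and 49.4 and 59.3 in H1R1 (-0.90 ± 0.12, adjusted p = 1e-05). RNA5-8SN2, a 5.8S rRNA gene, stood at 45.2 and 43.1, 80.9 and 80.7, and 36.1 and 22.2 CPM (-1.44 ± 0.16), and a 5S rRNA pseudogene on chromosome X at 141 and 212, 317 and 206, and 107 and 117 CPM (-1.22 ± 0.17). rRNA had been removed from the samples and rRNA copies share sequence, so both values are uncertain.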

How the results depend on the processing

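Of 127 genes with values in the text, 120 were called, 99 of these under every alternative other than the fold threshold, 19 lost the call without at least 1 library and 6 under another alternative, and no called gene reversed. With 1 library left out the log2 fold change of DNAJB6, not called, ran from -0.15 (without H1R1 replicate 2) to 0.046 (without H1R1 replicate 1), and those of HSPB1 and ATF3 from -0.46 to 0.13 and from -0.43 to 0.0049 without the same libraries. LMNA, not called, ran from -0.054 to 0.017 and LMNB1 from -0.073 to 0.098, and LMNB1 was -0.020 with upper-quartile factors, -0.033 with library size only, -0.0031 with no low-count filter and -0.0013 with at least 10 counts in every H1 and H1R1 library. The cause was not tested.

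Against a log2 fold change of 1, 3 genes were higher and 2 lower, with 0 in each of the classes that started or went on, 3 that reversed upwards and 1 that reversed downwards, as a stricter test must give fewer. DESeq2 called 622 genes lower, of which 426 started and 41 went on, with 38 and 39 that reversed upwards and downwards, and the cause was not tested. With 1 library of the fit left out, genes higher ran from 542 to 1484, genes lower from 378 to 1202, genes that started to rise from 306 to 798 and to fall from 235 to 660, genes that went on rising from 62 to 153 and falling from 29 to 60, and genes that reversed upwards from 34 to 64 and downwards from 30 to 77. Other scalings, filters and library sets kept the counts of genes higher and lower and of each class within 1.5 times, but not all list counts: with library size only, elongation genes higher went from 5 to 3, glycolysis genes higher from 4 to 2 and ribosomal protein genes lower from 1 to 5, and with RLE factors nuclear envelope genes lower went from 3 to 1.

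Replicate numbers did not pair the libraries: deviations of same-numbered libraries correlated between -0.04 and 0.04 over genes (-0.01 for H1 and H1R1). A fit with the replicate number as a block called 1273 genes higher and 1038 lower, and of the genes named CIRBP lost its call in it (adjusted p = 0.053). Sequencing depth limits genes of low count, and 2 libraries a condition limit every SE.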
